A study of Homo sapiens and Mus musculus with 12 samples.

Results

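The ChIP-seq peaks at SPI1 and at 8 other genes of ETS transcription factors (SPIB, FLI1, ERG, ETV6, ETS1, ETS2, ELF1 and ELF4) are described here. The 9 genes are a chosen list out of 28 protein-coding genes of the ETS family and 20033 protein-coding genes in all. A peak was assigned to a gene when its summit, the base of highest coverage, lay in the gene body or in the 20 kb on either side (GENCODE release 44, GRCh38). By this rule 20 of the 12513 peaks in 5 lists fell at 7 of the 9 genes. SPI1 and ELF1 had 4 peaks each, FLI1, ETV6 and ETS1 had 3 each, ETS2 had 2, and ERG had 1. No list had a peak at SPIB or ELF4.

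The human part of the series asked where LSD1 and the transcription factors GFI1 and SPI1 sit on chromatin in leukemia cell lines. It also asked whether GFI1 needs LSD1 to bind DNA. THP1, a monocytic leukemia line, gave 1 SPI1 list (1846 peaks) and 1 GFI1 list (3461 peaks), from cells for which the labels name neither an edit nor a treatment. K562, a chronic myeloid leukemia line of erythroid and megakaryocytic character, was made to express Cas9 and then received 1 of 2 guides, a non-targeting control (called sg-NT) or one that cuts the LSD1 gene (called sg-LSD1). The sg-NT cells gave 1 LSD1 list (6548 peaks) and 1 GFI1 list (498 peaks), and the sg-LSD1 cells gave 1 GFI1 list (160 peaks). All K562 cells, controls included, therefore carried Cas9 and a guide vector, and the depleted line came from 1 guide. Each list came from 1 library, so no test between libraries was made, and the intervals given below cover counting error only. A peak list holds no expression values, so neither the identity of the lines nor the loss of LSD1 could be checked in these data. The paper reports a strong decrease of LSD1 protein in the edited K562 cells by western blot. No SPI1 list of K562 and no LSD1 list of THP1 was analysed here. A difference between the SPI1 and LSD1 lists thus joins antibody and cell line, and the effects of both cannot be told apart.

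ETS factors share a DNA-binding domain that reads a purine-rich core around GGAA, and they direct much of blood cell development. SPI1 (PU.1) drives monocyte and granulocyte fates, and it is known to act on its own gene through a regulatory element upstream of the promoter. GFI1 is a zinc finger repressor that recruits the histone demethylase LSD1 and can oppose SPI1 at shared targets.

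The sequences under the summits that the account turns on are printed first, as the + strand of GRCh38 from 5′ to 3′, in 100 bases around each summit. They were chosen as the THP1 peaks of the SPI1 locus, the summit common to 2 lists and the other THP1 windows that hold a core marked here in capitals. The K562 windows are not printed, and of those the LSD1 window at ETS1 held a GATA core, as given below. Capitals mark 3 kinds of core on either strand. The core of the SPI1 motif is GAGGAAGT, with the shorter form GAGGAA. That of the GFI1 motif is AATCAC, and those of the GATA motif are AGATAA and its variant TGATAA. A core on the other strand thus appears as its reverse complement, and GAGGAA lies within GAGGAAGT. A match is a description of the letters and was not tested as a binding site.
SPI1 locus, SPI1 in THP1, nearer peak, chr11:47393212-47393311: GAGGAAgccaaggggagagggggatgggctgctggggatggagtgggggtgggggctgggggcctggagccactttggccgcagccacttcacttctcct
SPI1 locus, SPI1 in THP1, farther peak, chr11:47394620-47394719: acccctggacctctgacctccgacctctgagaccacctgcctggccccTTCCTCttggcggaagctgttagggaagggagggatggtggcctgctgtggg
SPI1 locus, GFI1 in THP1, chr11:47395108-47395207: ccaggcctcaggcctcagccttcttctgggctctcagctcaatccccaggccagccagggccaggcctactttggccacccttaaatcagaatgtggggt
FLI1 intron 1, SPI1 in THP1, chr11:128726886-128726985: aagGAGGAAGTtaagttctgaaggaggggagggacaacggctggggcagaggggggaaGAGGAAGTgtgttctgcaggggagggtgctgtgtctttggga
ETV6 intron 2, SPI1 and GFI1 in THP1, chr12:11836724-11836823: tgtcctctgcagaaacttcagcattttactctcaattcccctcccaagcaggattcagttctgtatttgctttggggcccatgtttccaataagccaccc
ETS1 intron 7, SPI1 in THP1, chr11:128483635-128483734: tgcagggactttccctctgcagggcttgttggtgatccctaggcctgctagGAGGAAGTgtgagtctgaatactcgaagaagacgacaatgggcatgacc
ELF1 intron 1, GFI1 in THP1, chr13:41008472-41008571: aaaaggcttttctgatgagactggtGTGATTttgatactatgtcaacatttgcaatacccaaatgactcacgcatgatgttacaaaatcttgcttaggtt

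**Figure D1:**
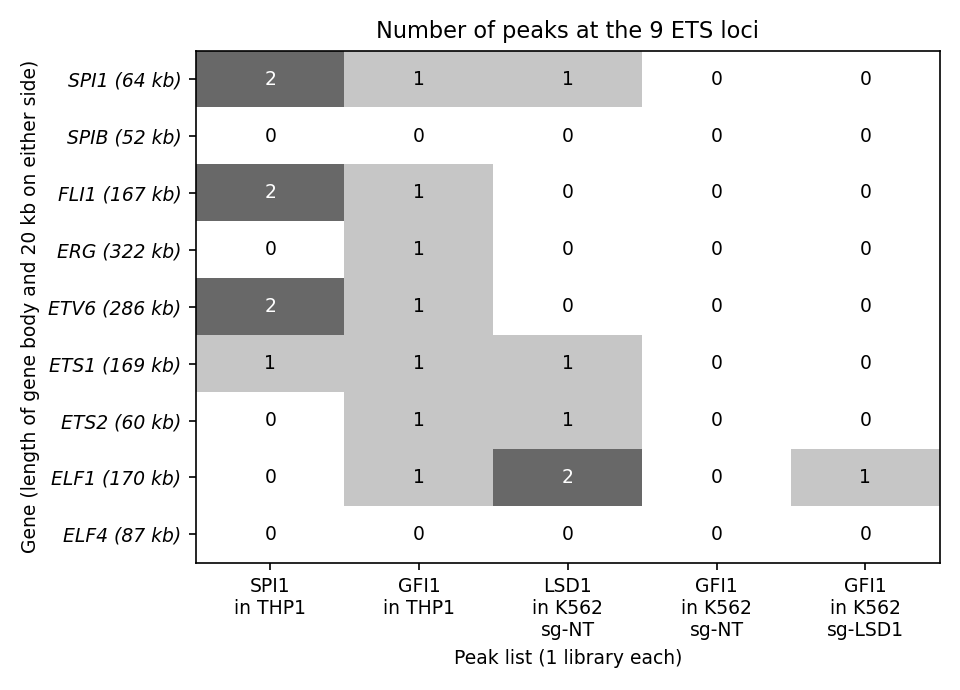
Number of peaks in each of the 5 lists (columns) at each of the 9 ETS genes (rows, with the length of gene body and 20 kb on either side), shaded by number. The GFI1 list of THP1 has 1 peak at each of 7 genes, the SPI1 list has 7 peaks at 4 genes, and the rows of SPIB and ELF4 are empty.

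SPI1 lies on the minus strand of chromosome 11 (47354860 to 47378547) and was the gene with peaks in the most lists together with ETS1 and ELF1, in 3 of 5. Its 4 peaks all lay upstream of the transcript start, between 11.8 and 16.6 kb away, and none fell in the gene body or at the promoter. The stronger SPI1 peak, whose fold over the local background was 8.50 with a −log10 p of 13.6, had its summit 14.7 kb upstream (chr11:47393095-47393389). It rested on 12 fragments over the summit (95% interval 6.20 to 21.0), as solved from the fold and the p-value. The second SPI1 peak, 16.1 kb upstream (chr11:47394617-47394919), reached only fold 4.27 and −log10 p 5.37. It rested on 5 fragments, the fewest that passed the calling threshold in this library, and ranked 1827 of 1846 peaks. In terms of fold the nearer peak was close to the median of the SPI1 list (8.62) and the farther one was near its bottom.

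GFI1 also had a peak in the same upstream stretch in THP1 cells, with its summit 16.6 kb from the SPI1 start (chr11:47394992-47395589, fold 9.43, −log10 p 15.5, 13 fragments with an interval of 6.92 to 22.2). This peak was stronger than 69.3% of the GFI1 list. Its summit lay 488 bp from that of the weak SPI1 peak, and 72 bp separated the 2 intervals, so they did not overlap. In K562 sg-NT cells the LSD1 peak lay closer to the gene, 11.8 kb upstream (chr11:47390136-47390500), and was the strongest of the 20 peaks by fold (13.4) and by −log10 p (25.6), with 21 fragments (interval 13.0 to 32.1). It was stronger than 90.5% of the LSD1 list, and its summit was 4.80 kb from the GFI1 summit of THP1. Neither GFI1 list of K562 had a peak at SPI1. The nearest start of a protein-coding transcript to the 3 THP1 summits was that of SLC39A13, a zinc transporter gene, at 11974 to 13870 bp, while that of the LSD1 summit was SPI1 itself. The peaks are therefore assigned to SPI1 by the window, and which gene they act on was not tested.

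Of the printed SPI1-locus sequences, neither SPI1 summit held the full core GAGGAAGT. The nearer one held GAGGAA at the first bases of its 100-base window, and the farther one held it on the minus strand at the summit. In 100 bases GAGGAA was present at 56.9% of all SPI1 summits and in 8.23% of windows 2000 bp to either side. The GFI1 summit held no AATCAC.

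**Figure D2:**
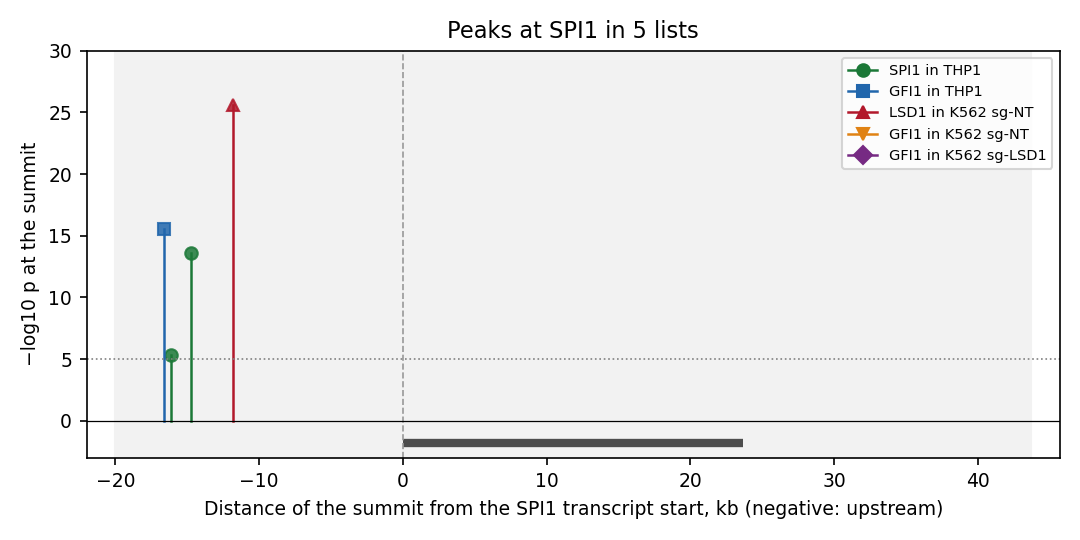
Peaks at SPI1 by distance of the summit from the transcript start in kb (x axis, upstream negative) and by −log10 p (y axis). Symbols mark the lists, the dark bar the gene body, the grey area the gene body with 20 kb on either side and the dotted line the calling threshold of 5. All 4 summits sit between 11.8 and 16.6 kb upstream, with the LSD1 peak of K562 nearest to the gene and highest at 25.6.

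FLI1, a driver of megakaryocyte and endothelial genes, carried the strongest SPI1 binding among the 9 loci. Its gene body spans 128686535 to 128813267 on the plus strand of chromosome 11. One SPI1 peak lay at the promoter (chr11:128693787-128694176), with the summit 123 bp upstream of the canonical start and 33 bp into another FLI1 transcript. Its fold was 13.3, its −log10 p was 24.3 and it rested on 18 fragments (interval 10.7 to 28.5). The full SPI1 core lay inside this peak on the minus strand, 53 bp from the summit and 74 bp upstream of the canonical start. It is shown in 30 bases because it is the core nearest to a transcript start.
FLI1 promoter, SPI1 in THP1, chr11:128693987-128694016: agagagataggACTTCCTCcccgattcgca

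The other FLI1 peak of the SPI1 list lay in intron 1, 32.9 kb downstream of the canonical start (chr11:128726805-128727099), and was of nearly the same strength (fold 13.1, −log10 p 24.1), with 19 fragments at the summit (interval 11.4 to 29.7). It held 2 copies of GAGGAAGT, the only peak of the 9 loci with more than 1. Both FLI1 peaks were stronger than 84.5% to 84.9% of the SPI1 list. GFI1 had a weaker peak in the same intron (chr11:128725542-128725939, 31.8 kb, fold 4.85, −log10 p 6.51, 8 fragments), 1112 bp from the intronic SPI1 summit and not overlapping it. Only 7.17% of the GFI1 list was weaker. No list of K562 had a peak at FLI1, and the nearest LSD1 peak was 210.2 kb away, at ETS1.

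ETV6, a repressor of the family that is needed in blood stem cells and is fused to RUNX1 in childhood leukemia, had the only site at which 2 lists overlapped. In intron 2, 187.1 kb from the start, the SPI1 peak (chr12:11836459-11836911) and the GFI1 peak (chr12:11836689-11837004) of THP1 cells had their summits at the same base, 11836774. Both rested on 11 fragments (interval 5.49 to 19.7). SPI1 reached fold 6.01 (−log10 p 9.09) and GFI1 reached fold 5.46 (−log10 p 8.22). Both were below the median of their lists, and the local background was higher here than at most other members, at 0.998 and 1.2 fragments. The printed sequence held none of the cores marked in capitals, though it held AATC, a part of AATCAC, on the minus strand. The other SPI1 peak, in intron 4 (chr12:11855567-11855855, 205.9 kb), had the same values as the weak SPI1 peak at SPI1, a fold of 4.27 and 5 fragments. K562 cells had no peak at ETV6 in any list.

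ETS1, a factor of lymphoid cells, had 1 peak of each of 3 proteins, in 3 different introns. SPI1 sat in intron 7 (chr11:128483508-128483776, 103.9 kb from the start) at fold 5.83 and −log10 p 8.80, and a full core began at the base after the summit. GFI1 sat in intron 3 of THP1 cells (chr11:128548579-128548901, 38.8 kb) at fold 8.82 and −log10 p 14.7, in sequence that was 74% G or C in the 100 bases around the summit. LSD1 of K562 cells sat in intron 8 (chr11:128476311-128476586, 111.2 kb) at fold 4.30 and −log10 p 5.35, on 6 fragments, the fewest that pass the threshold in that library. The GFI1 summit was 65.1 kb from the SPI1 summit and 72.4 kb from the LSD1 summit. The LSD1 peak was stronger than only 0.84% of its list.

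ETS2, which acts downstream of MAP kinase signals in macrophages, had a GFI1 peak at its promoter in THP1 cells (chr21:38805056-38805369). Its summit lay 32 bp inside the annotated gene start and 714 bp upstream of the canonical start, and with a −log10 p of 16.1 (fold 9.17, 16 fragments, interval 9.15 to 26.0) it was the strongest of the GFI1 peaks at the 9 loci by −log10 p. The LSD1 peak of K562 cells was elsewhere, downstream of the gene (chr21:38832116-38832520, 26.4 kb from the canonical start, fold 11.3, −log10 p 20.6). The SPI1 list had no peak at ETS2.

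ELF1, a factor that regulates T cell and blood stem cell genes, had peaks in 3 lists but none of SPI1. The GFI1 peak of THP1 cells lay in intron 1 (chr13:41008302-41008766, 10.8 kb, fold 9.43, −log10 p 15.5, 13 fragments) and held AATCAC on the minus strand, 22 bp from the summit. LSD1 had 2 peaks in K562 sg-NT cells. One lay in intron 2 (chr13:40979249-40979519, fold 6.62, −log10 p 9.83), and the other lay 158 bp upstream of the gene start (chr13:41061240-41061641, fold 5.71, −log10 p 8.09), where the nearest start was that of WBP4, 89 bp away. GFI1 of sg-LSD1 cells had a peak in the gene body upstream of the canonical transcript (chr13:41026280-41026607) at fold 6.47 and −log10 p 9.40, on 9 fragments (interval 4.12 to 17.1), and it ranked 94 of 160. It held AATCAC 101 bp from the summit. This was the only GFI1 peak of K562 cells at any of the 9 genes, and the control cells had none there, although their list was longer. Because the reads were not analysed here, a site missing from a list is not shown to be unbound.

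ERG, a factor that maintains blood stem cells, had the longest window of the 9 genes (321.8 kb) and 1 peak, of GFI1 in THP1 cells (chr21:38476397-38476802, intron 1, 21.8 kb, fold 6.06, −log10 p 8.58, 8 fragments). SPIB, the closest relative of SPI1 and a factor of B cells and plasmacytoid dendritic cells, had the shortest window (52.4 kb). Its nearest SPI1 and GFI1 peaks in THP1 cells were 431.6 and 521.1 kb away. ELF4, on chromosome X, had its nearest SPI1 peak 2127 kb away and its nearest LSD1 peak 1731 kb away. Chromosome X as a whole held few peaks, in THP1 cells 7 of SPI1 and 2 of GFI1. In K562 sg-NT cells it held 24 of LSD1 and 2 of GFI1, and in sg-LSD1 cells 0 of GFI1. An empty window there is therefore not particular to ELF4.

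**Figure D3:**
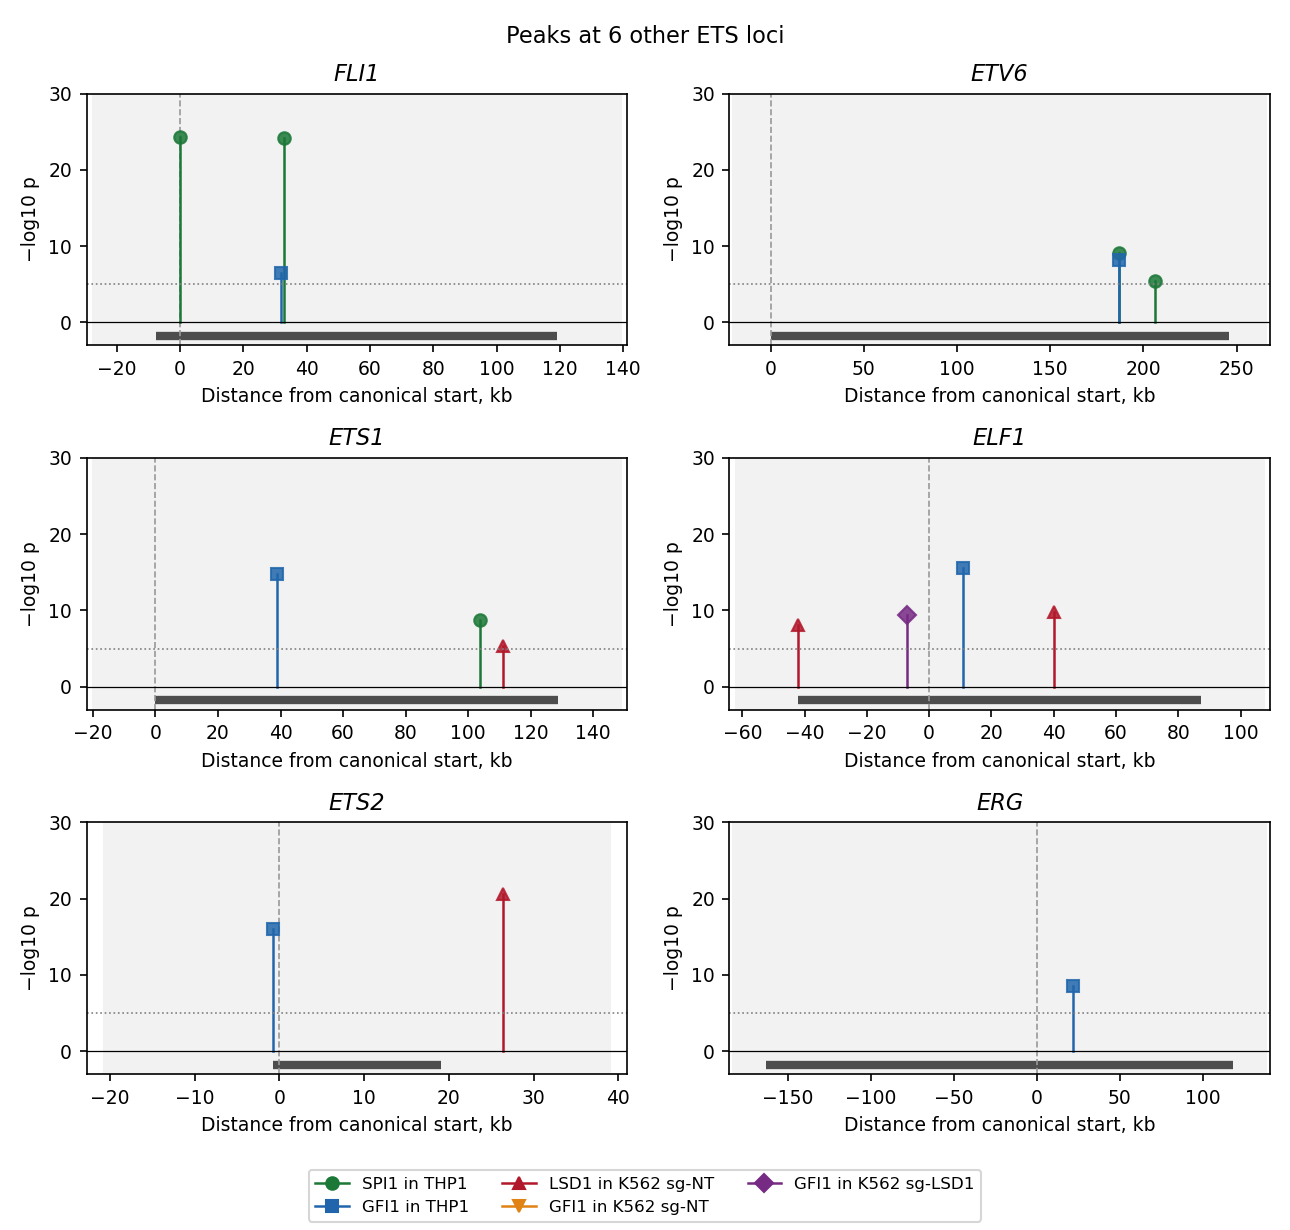
Peaks at the 6 other genes that had any, by distance of the summit from the canonical transcript start in kb (x axis, upstream negative) and by −log10 p (y axis), with symbols, bars and lines as for SPI1. Each panel has its own distance scale. At ETV6 the SPI1 and GFI1 symbols share 1 position, and at FLI1 the 2 SPI1 peaks stand above 24.

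Across the 9 genes, SPI1 had a peak at 4 (SPI1, FLI1, ETV6 and ETS1), GFI1 of THP1 cells at 7, LSD1 of K562 cells at 4 (SPI1, ETS1, ETS2 and ELF1), GFI1 of sg-NT cells at 0 and GFI1 of sg-LSD1 cells at 1. Over all protein-coding genes, windows of the same rule held a peak of these lists at 9.54%, 17.4%, 29.8%, 2.82% and 0.928% of genes, and a peak of any list at 43.5%. SPI1 and GFI1 of THP1 cells both had a peak at 4 of the 9 genes, against 3.35% of all genes, and LSD1 of K562 cells joined them at SPI1 and ETS1, 2 of the 9, against 1.6%. The 9 genes together are longer than most, with a median window of 166.7 kb (range 52.4 to 321.8 kb) against 67.5 kb. A longer window holds more peaks at equal density.

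Per length, the SPI1 list had 7 peaks in the 1.375 Mb of the 9 windows, which was 5.09 per Mb (exact Poisson interval 2.05 to 10.5), against 0.836 per Mb in the windows of all protein-coding genes and 0.628 over the genome. At the density of the genome 0.864 peaks would fall there. The GFI1 list of THP1 cells also had 7 peaks, 5.09 per Mb (2.05 to 10.5), against 1.66 in all gene windows and 1.18 over the genome, with 1.62 at the density of the genome. For both THP1 lists the interval at the 9 genes lay above both values. The SPI1 interval of the 19 other ETS genes, 1.10 to 7.93, also lay above both. The 9 genes were chosen with earlier results of these data known. The LSD1 list of K562 cells had 3.64 per Mb at the 9 genes (1.18 to 8.49). That interval held the values of 3.29 in all gene windows and 2.23 over the genome. GFI1 in sg-NT cells had no peak, with an upper limit of 2.68 per Mb, and 0.233 peaks would fall there at the density of the genome, so fewer peaks than in other genes could not have been seen. The single peak in sg-LSD1 cells gave 0.727 per Mb (0.0184 to 4.05), against 0.0767 in all gene windows.

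Peaks of different proteins overlapped at 1 site of the 9 genes. One of the 7 SPI1 peaks overlapped a GFI1 peak of THP1 cells (the ETV6 site), against 10.5% of the SPI1 list, and seen from the other list 1 of 7 GFI1 peaks against 5.58%. None of the 7 GFI1 peaks of THP1 cells overlapped an LSD1 peak of K562 cells, where 8.7% of that list and 4.6% of the LSD1 list did. With so few peaks these counts cannot be set apart from the shares of the lists. Within K562 sg-NT cells 390 of all 498 GFI1 peaks (78.3%) overlapped an LSD1 peak. The 9 genes had no GFI1 peak there, so that overlap could not be seen at them. Within 2 kb, a distance chosen after the values were seen, 3 of the 7 GFI1 summits (at SPI1, FLI1 and ETV6) had an SPI1 summit, against 6.82% of the GFI1 list. The remaining GFI1 summits were 65.1 kb (ETS1) to 801.5 kb (ELF1) from the nearest SPI1 summit. The closest LSD1 summit of K562 cells to a GFI1 summit of THP1 cells was that at SPI1, and the next were at 27.1 kb (ETS2) and 29.2 kb (ELF1).

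Of the 20 peaks, 11 lay in introns of the canonical transcript, 5 upstream of the gene, 3 in the gene body upstream of the canonical transcript and 1 downstream, and none lay in an exon of the canonical transcript. Only 3, at FLI1, ETS2 and ELF1, lay within 1 kb of a start of their own gene. The own gene had the nearest protein-coding start for 16 of the 20, the exceptions being the 3 THP1 peaks at SPI1 and the LSD1 peak at WBP4 and ELF1. In strength the peaks ranged from 4.27 to 13.4 in fold and from 5.35 to 25.6 in −log10 p. By −log10 p, 12 of the 20 were weaker than the median of their list, among them 5 of 7 SPI1 peaks and 3 of 7 GFI1 peaks of THP1 cells. The medians of −log10 p were 9.09 for the SPI1 peaks (list 14.8), 14.7 for the GFI1 peaks of THP1 cells (list 11.6) and 9.83 for the LSD1 peaks (list 11.3).

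**Figure D4:**
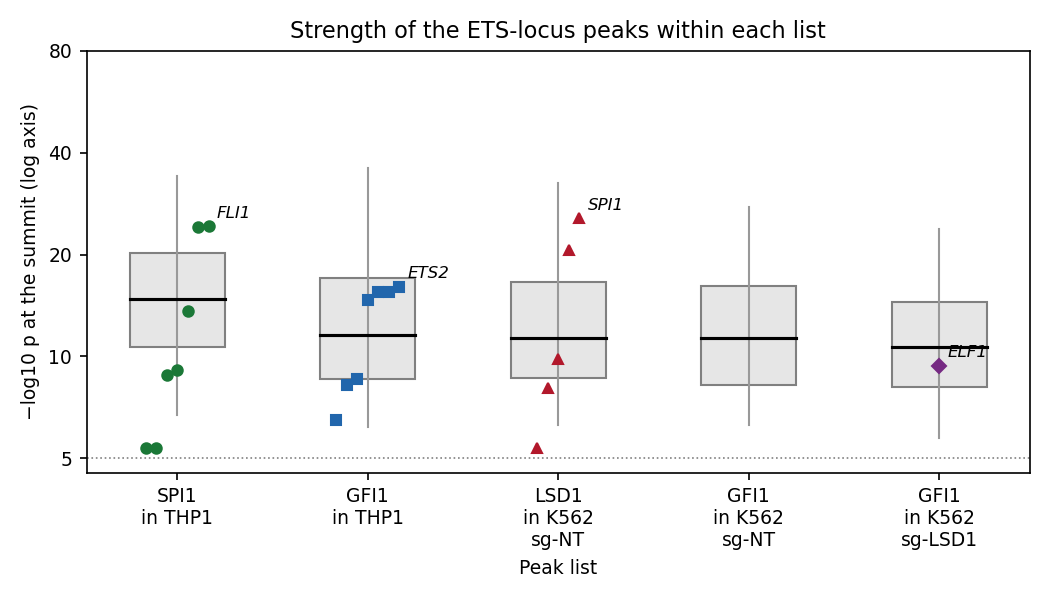
−log10 p at the summit on a log axis (y axis) for the peaks at ETS genes (symbols) within each list (x axis). Boxes span the 25th to 75th percentile of the whole list with the median as a line, and thin lines span the 5th to 95th percentile. The 2 FLI1 peaks of SPI1 (24.1 and 24.3) and the LSD1 peaks at SPI1 (25.6) and ETS2 (20.6) stand above the boxes, and no peak exceeds the 95th percentile of its list.

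In 50 bases at the summit, GAGGAAGT was found at 2 of the 7 SPI1 peaks (FLI1 intron 1 and ETS1), against 26.4% of the SPI1 list and 0.19% of windows 2000 bp to either side. AATCAC was found at 1 of the 7 GFI1 peaks of THP1 cells (ELF1), against 10.1% of that list and 2.37% of the flanking windows. None of the 5 LSD1 summits held AATCAC (2.47% of the list, 2.29% of flanks) or a GATA core (11.7% and 4.18%). In 200 bases, AATCAC was found at 2 of the 5 LSD1 summits (ETS1 and ELF1 intron 2), against 9.77% of the list and 9.50% of flanks. Both of these AATCAC matches lay outside the called peaks. A GATA core was found in 200 bases at 1 LSD1 summit, against 34.8% of the list and 16.8% of flanks. It was that at ETS1, where AGATAA lay 26 bp from the summit. The shorter letters AATC were found at 3 of the 7 GFI1 summits (SPI1, ETV6 and ELF1), against 50.9% of the list and 29.2% of the flanks. The presence of cores at the ETS genes is read against the shares of the lists, and a window without these letters says nothing of the protein.

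Among the 19 other genes of the family, 12 had a peak in some list, in windows with a median of 73.7 kb. SPI1 had peaks at ELF2, ETV1, ERF and the neighbours ETV3 and ETV3L, whose windows share 2 peaks. The GFI1 list of THP1 cells had peaks at ETV5, ETV7, ERF and ELK4, and LSD1 had 11 peaks at ETV7, ELF3, EHF, ELK3 and SPDEF, of which SPDEF, an epithelial factor, held 6. These peaks too are assigned by the window. The ETV7 peaks of both lists were nearest to the start of BNIP5, and the SPDEF peak farthest downstream to that of PACSIN1. The GFI1 summit at ERF lay 977 bp from the start of ENSG00000268643 and 981 bp from that of ERF. ERF, a repressor of the family, was the only one of the 19 with both SPI1 and GFI1 peaks, against 4 of the 9 genes described above. Per Mb these 19 genes had 3.40 SPI1 peaks (1.10 to 7.93), 2.72 GFI1 peaks of THP1 cells (0.741 to 6.96) and 7.48 LSD1 peaks (3.73 to 13.4), and each interval overlapped that of the 9 genes. Their SPI1 and LSD1 intervals lay above the values of all gene windows (0.836 and 3.29), while their GFI1 interval held that value (1.66). Neither GFI1 list of K562 cells had a peak at them.

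The number of peaks at SPI1 in the 5 lists (2, 1, 1, 0 and 0) was matched exactly by 10 of the 20029 other protein-coding genes whose windows do not overlap that of SPI1. Of these, the closest in window length were ENSG00000290146, PDLIM7, WDR46, PFDN6 and EMG1. Likeness here is the sum of the absolute differences over 5 lists, which was 0 for these genes, and neighbours such as WDR46 and PFDN6 can share peaks.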

How the data were processed

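The 5 human peak lists were analysed. The 7 samples without a list (inputs and mouse H3K4me1 libraries) were not used here. Per the methods and the submitters' processing notes, reads were trimmed (Trim Galore 0.6.1), mapped to GRCh38 (Bowtie2 2.5.4), freed of duplicates (Picard 3.1.0) and used as fragments to call peaks per library (MACS2 2.2.9.1, p threshold 1e-05). Blacklisted regions were then removed. Whether inputs served as controls is not given in the sources used here.

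The authors deposited for each peak a fold, the ratio of pileup to local background at the summit, and p-value and q-value on a −log10 scale. The deposited score was not used. Read totals were not at hand, so a whole number of fragments was solved from each fold, read as (pileup + 1) / (background + 1), and the Poisson p. A solution within 0.1% was found for 99.97% to 100% of peaks. The lowest backgrounds were 0.404 (SPI1) and 0.484 (GFI1) in THP1 cells, and 0.63 (LSD1), 0.451 (GFI1, sg-NT) and 0.547 (GFI1, sg-LSD1) in K562 cells, so 5 or 6 fragments were needed for a peak. The median was 11 to 13 fragments over a summit, and sites below the needed number are not in the lists. The paper attributes its few GFI1 sites in K562 cells to limits of the antibodies at hand, which was not tested here.

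Windows, overlaps (at least 1 bp), motif cores (50 bp, both strands) and exact 95% Poisson intervals were computed in Python 3.11.15 with numpy 2.4.6, scipy 1.17.1 and pysam 0.24.0, and were checked on simulated data. Intervals cover counting error only. The genes and lists were chosen with earlier results of these data known. Named were all 9 genes with every peak, other ETS genes with a peak, and 5 genes most like SPI1 in numbers of peaks. Alternatives were other windows, thresholds, overlap rules and motif settings.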

Additional observations from a re-analysis of the deposited data

How the results depend on the processing

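Of 88 alternative values for the 21 numbers of peaks, loci and overlaps and the densities at the 9 ETS genes, 82 stayed within 1.5 times the reported value (for densities, within its counting interval) and 6 moved. Some of the 82 could not move. GFI1 in sg-NT cells had no peak at the 9 genes, so its overlaps and its counts at stricter thresholds could only stay at 0. A −log10 q of at least 2 removed no peak at these genes. The 5 LSD1 peaks became 2 in gene bodies alone and 9 with 50 kb on either side, and the 4 genes with an LSD1 peak became 2 in gene bodies alone. GFI1 in sg-NT cells, with 0 peaks at 0 genes, had 2 peaks at 2 genes with 50 kb. The single SPI1 peak with a GFI1 peak became 2 when peaks up to 500 bp apart were counted, which adds the SPI1 locus. The density of SPI1 peaks relative to the genome was 8.10 and ranged from 6.46 to 7.84, and that of GFI1 in THP1 cells was 4.32 and ranged from 3.55 to 5.02. For LSD1 it was 1.63 and ranged from 0.884 in gene bodies alone to 2.11 with 50 kb. For GFI1 in sg-NT cells it was 0 and reached 6.16 with 50 kb. For GFI1 in sg-LSD1 cells it was 13.35 and ranged from 9.59 to 18.1. The counting intervals of these GFI1 densities in K562 cells are so wide that they could hardly count as moved. Of 8 alternatives for motif cores, 4 moved: AATC in place of AATCAC raised the GFI1 summits of THP1 cells from 1 to 3 and the LSD1 summits from 0 to 1, and 200 bases raised the LSD1 summits with AATCAC from 0 to 2 and with a GATA core from 0 to 1. Reading the fold without a pseudocount solved only 2.21% to 4.97% of peaks, so that alternative gave no value for the number of fragments. No paired analysis was possible because each condition had 1 library. At 5 or 6 fragments for the weakest peaks, a site missing from a list cannot be told from a site below the threshold.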

Other observations

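Just outside the windows lay 8 more peaks, between 20 and 50 kb from a gene of the list. The strongest SPI1 peak near SPI1 was one of them, 29.6 kb from the gene body (chr11:47407923-47408264, fold 17.8, −log10 p 35.2), and it was stronger than both SPI1 peaks inside the window. It lay much nearer to the start of SLC39A13 than to SPI1, and which gene it acts on was not tested. LSD1 of K562 cells had 2 peaks at 21.6 and 22.7 kb from SPI1, with folds of 5.84 and 5.50, and GFI1 of sg-NT cells had 1 at 46.5 kb (fold 5.51) nearest to PSMC3, a proteasome gene. Near SPIB, the LSD1 and GFI1 lists of sg-NT cells both had a strong peak 43.8 kb away (chr19:50374851-50375731, fold 24.8, and chr19:50374871-50375378, fold 20.8), nearest to NR1H2, the gene of a liver X receptor. The 2 others were a GFI1 peak of THP1 cells 46.8 kb from FLI1 (fold 8.19) and an LSD1 peak 27.9 kb from ETS2 (fold 9.20).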
